A study of Mus musculus with 4 samples.

Results

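The nuclear-encoded subunits of the mitochondrial respiratory chain were taken from the count table by gene symbol: Nduf genes of the A, B, C, S and V series, Sdha to Sdhd, and symbols that begin with Uqcr, with Cox and a digit from 4 to 8, or with Atp5. Of 95 matching rows, 10 were left out for the suffix -ps, and of the Atp5o rows the one with counts was kept. This left 84 genes of 55487: 36 of complex I, 4 of complex II, 8 of complex III, 19 of complex IV and 17 of complex V. The symbols sort the genes imperfectly. Ndufa4 is named after complex I but is a subunit of complex IV, Cox7a2l is an assembly factor of supercomplexes, and Cox6c2 is annotated as a processed pseudogene.

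The RNA was labelled as that of isolated Langerhans cells, dendritic cells that live in the epidermis, taken from ears of wild type mice. Keratinocyte RNA was also present, and the levels of keratinocyte and Langerhans cell markers are set side by side below. There were 4 libraries: 2 of Vaseline-treated ears, the control, and 2 of imiquimod-treated ears. Imiquimod is an agonist of Toll-like receptor 7 that gives a psoriasis-like inflammation when applied to skin. Depth was 41998172 and 76028955 counts in the Vaseline libraries and 14902782 and 20690182 in those with imiquimod, always in the order library 1, library 2. Separate animals are not named in the labels, so p-values measure only how far these samples spread, which may be technical. Both Vaseline samples carry the same letters in their sample codes and each imiquimod sample has letters of its own. What the codes stand for is not stated. Should they be batches, treatment and batch cannot be told apart.

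The respiratory chain moves electrons from NADH through complex I, and from succinate through complex II, to ubiquinone, then through complex III and cytochrome c to complex IV, which reduces oxygen. Complexes I, III and IV pump protons across the inner mitochondrial membrane, and complex V, the ATP synthase, uses that gradient to make ATP. All complexes but complex II combine subunits of the nuclear genome with a few made inside the mitochondrion, and dendritic cells are known to shift between respiration and glycolysis when Toll-like receptors are engaged.

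Levels are in CPM, counts scaled for depth, after TMM, which sets a factor per library so that most genes agree between libraries. Fold changes are on the log2 scale, with imiquimod over Vaseline, from an edgeR quasi-likelihood fit of all 39439 genes that passed the filter on low counts, and adjusted p-values are Benjamini-Hochberg over all of them. Of the 84 genes, 81 passed the filter; the other 3 were Cox7b2, Cox8b and Cox8c, testis and muscle forms of complex IV subunits. Reads were also spread over genes with little known use in skin: the median olfactory or vomeronasal receptor gene was at 0.365 and 0.0861 CPM of the unscaled totals, per exonic kilobase, with Vaseline, and at 0.504 and 1.23 with imiquimod. Genes whose ratio to this background averaged at least 5 over the 4 libraries, 14930 of those tested, serve below as the expressed genes. The background was lowest in Vaseline 2, so a gene can reach that average mainly through this library. Ndufb2, for one, was at 8.25 and 23.8 times background with Vaseline and at 4.59 and 2.23 with imiquimod. The set thus leans to genes high in Vaseline 2, and every comparison with the expressed genes below carries that lean.

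None of the 81 respiratory chain genes passed an adjusted p of 0.05 in either direction with the edgeR quasi-likelihood test, and the smallest adjusted p was 0.0869. DESeq2 called 2 of them lower, as given below, and limma-voom 0 (it called 0.104% of all tested genes higher and 0.345% lower). Over all tested genes 25 were called higher (0.0634%) and 54 lower (0.137%). Of the 81 fitted values 80 were negative, with a median log2 fold change of -1.13, quartiles of -1.29 and -0.90 and a range from -2.31 to 0.56. The median was 0.41 over all tested genes and -0.67 over the expressed genes, of which 82.1% had a negative value. At an unadjusted p under 0.05, 21 members were counted, all with lower levels, against 5.1% of all tested genes and 13% of expressed genes. In bulk RNA of this kind, fewer cells of a type and less RNA per cell cannot be told apart.

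In 55 of the 81 genes both imiquimod libraries lay below both Vaseline libraries, and in 0 both lay above. The same non-overlap downward was seen in 20.9% of all tested genes and in 49.7% of expressed genes, and upward in 30.5% and 5.92%. As a share of unscaled library totals, 35 of the 81 had non-overlapping groups with imiquimod lower, against 7.42% of all tested genes and 18.9% of expressed genes. On that scale 1 member, Ndufa12, did not overlap upward, against 45.6% of all tested genes and 24.1% of expressed genes. The summed counts of the 84 genes made up 0.301% and 0.348% of the Vaseline libraries and 0.315% and 0.207% of the imiquimod libraries. By that sum imiquimod 1 lay between the Vaseline libraries and imiquimod 2 alone was low.

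The libraries of 1 treatment also differed from each other. Vaseline 2 had the highest CPM in 77 of the 81 genes and imiquimod 2 the lowest in 77. The median ratio of Vaseline 2 to Vaseline 1 was 1.84, against 1.42 over expressed genes, and that of imiquimod 1 to imiquimod 2 was 2.27, against 1.49. Imiquimod 1 and Vaseline 1 were close, with a median ratio of 0.884, against 0.893 over expressed genes, and imiquimod 1 was at or above Vaseline 1 in 24 genes. Imiquimod 2 over Vaseline 2 had a median ratio of 0.221, against 0.409. The 2 libraries that stood farthest apart also had the lowest and the highest level of receptor genes and TMM factors of 0.598 and 1.66; their part in the result was not tested.

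**Figure D1:**
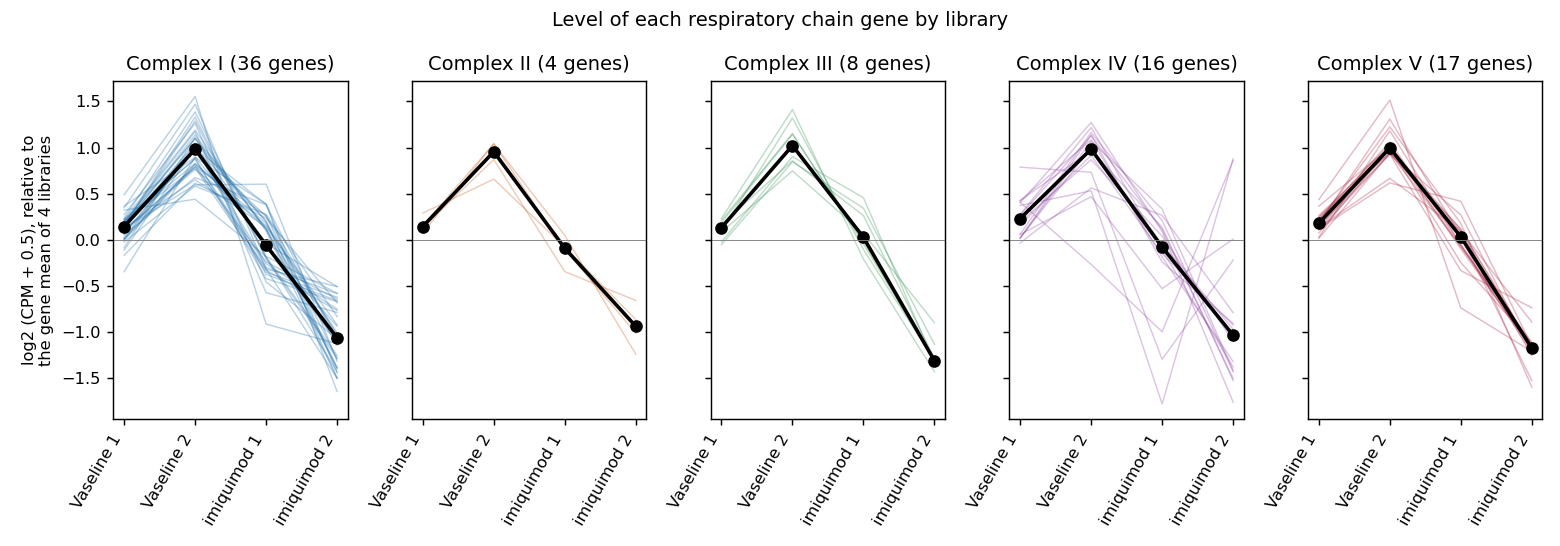
Each thin line is 1 of the 81 tested genes, drawn as log2 (CPM + 0.5) in each of the 4 libraries minus its mean over them, in 1 panel per complex; black points are panel medians. Over all members the medians were 0.15 and 0.99 with Vaseline and -0.05 and -1.14 with imiquimod (library 1, then 2), and several tissue forms of complex IV leave the common course.

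The medians of the complexes lay close together, and differences between complexes were not tested. The median log2 fold changes were -1.08 for complex I, -1.11 for complex II, -1.10 for complex III, -1.13 for complex IV and -1.18 for complex V. Non-overlapping groups with imiquimod lower were found in 22 of 36 genes of complex I, 4 of 4 of complex II, 5 of 8 of complex III, 11 of 16 tested of complex IV and 13 of 17 of complex V. The same was seen in 20.9% of all tested genes and 49.7% of expressed genes, shares to set beside the counts of single complexes below as well. Standard errors were worked back from the test, as the size of the log2 fold change over the square root of its quasi-likelihood F statistic. Those of single genes ran from 0.60 to 1.05.

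**Figure D2:**
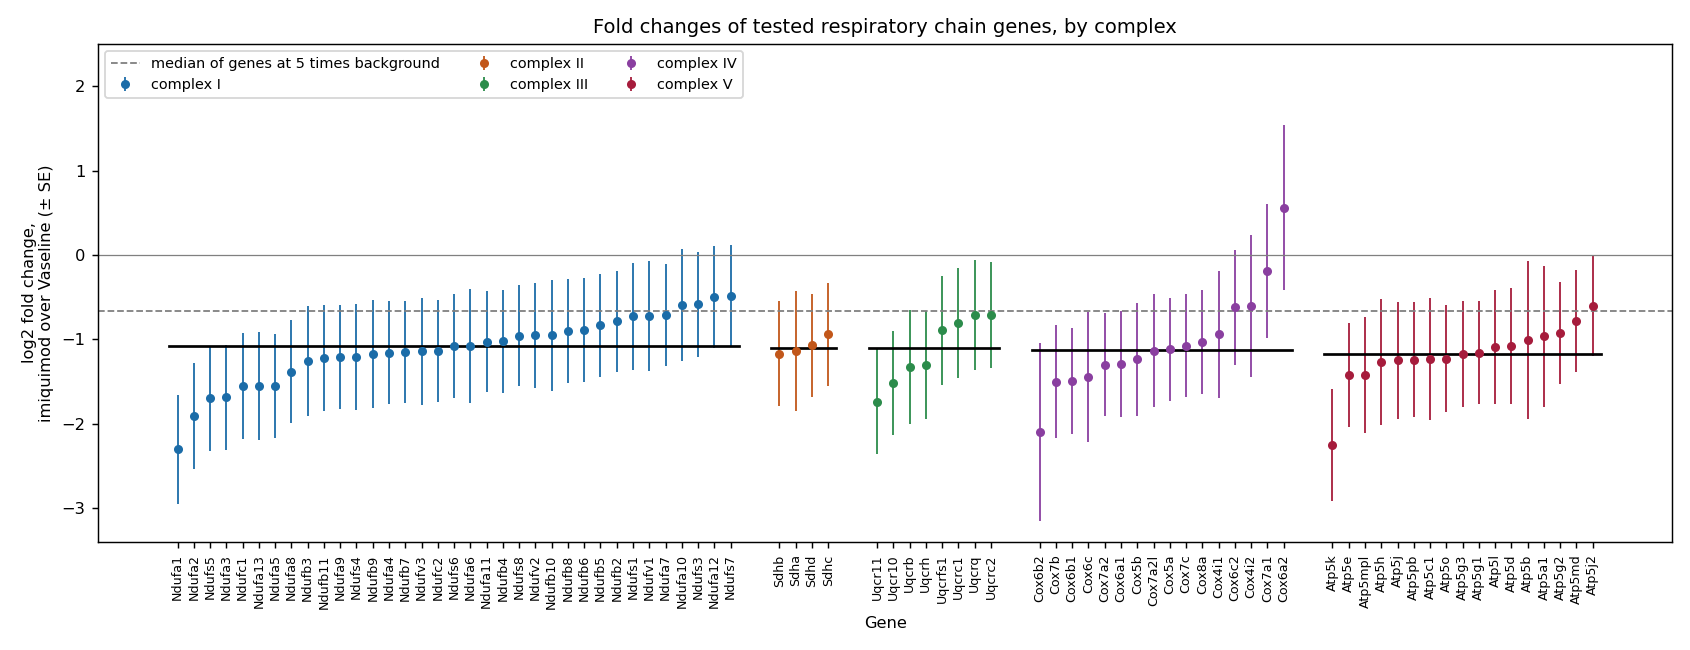
Points are log2 fold changes (imiquimod over Vaseline) of 80 of the 81 tested genes with their standard errors as bars, sorted within each complex; black lines are the complex medians, from -1.08 to -1.18, and the dashed line is the median of expressed genes, -0.67. Ndufa1, Atp5k and Cox6b2 lie lowest, and Cox6a2, at 0.56, is the single gene above 0.

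In complex I, the 28 accessory subunits, which surround and stabilise the enzyme, had a median log2 fold change of -1.15. Ndufa1 (ENSMUSG00000016427; GRCm38 chrX:37187588-37191163, minus strand), a small membrane-arm subunit needed for assembly of the complex, had 10.8 and 23.1 CPM with Vaseline and 3.77 and 3.18 with imiquimod. Both imiquimod libraries lay well below both Vaseline libraries, and close to each other. The fitted change was -2.31 on the log2 scale (SE 0.65), with adjusted p = 0.0869 by edgeR quasi-likelihood. DESeq2 gives no adjusted p to genes it filters out, and 9619 of the tested genes and 69 of the 81 members had one. Of the 9619 it called 6 higher (0.0624%) and 669 lower (6.95%). Ndufa1 passed with DESeq2 at -2.60, adjusted p = 0.0125. Its log2 fold change was -1.37 on library totals and -1.45 among genes at 5 times background fitted alone.

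Ndufa2, a subunit of the matrix arm, had 19.8 and 43.8 CPM with Vaseline and 12.3 and 5.14 with imiquimod, again without overlap. Its log2 fold change was -1.91 (SE 0.63), with adjusted p = 0.186 by edgeR quasi-likelihood and 0.0499 by DESeq2 (-2.16). On library totals it was -1.09, and among genes at 5 times background fitted alone -1.14. No other of the 69 members passed with DESeq2, and 12 members had no adjusted p there. Ndufs5, an accessory subunit on the intermembrane-space side, had 18.3 and 41.3 CPM with Vaseline and 13.5 and 5.43 with imiquimod (-1.70). Ndufa3 had 13.8 and 27.9 against 8.11 and 5.11 CPM (-1.69), Ndufa5 16.1 and 35.9 against 12.6 and 5.75 (-1.55), and Ndufc1 8.59 and 17.5 against 4.86 and 4.12 (-1.56). In each of these 4 genes the groups did not overlap, and the adjusted p by edgeR quasi-likelihood was between 0.245 and 0.290.

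The accessory subunits of highest level per exonic kilobase were Ndufb10, Ndufb11 and Ndufb9, all of the membrane arm. Ndufb10 had 55.6 and 86.3 CPM with Vaseline and 52.5 and 21.7 with imiquimod (-0.95), Ndufb11 33.5 and 67.1 against 32.8 and 11.1 (-1.22), and Ndufb9 36.7 and 68.7 against 36.7 and 10.97 (-1.17). In all 3 the groups were separated only by the small margin between Vaseline 1 and imiquimod 1. Exons of other genes cover 19.5% of the exonic bases of Ndufb9 and 39.0% of those of Ndufb6, so reads there may be shared.

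The 7 catalytic core subunits of complex I that the nucleus encodes, which bind NADH, flavin and the iron-sulfur clusters, lay nearer 0. Their median log2 fold change was -0.73, with a range from -0.96 to -0.48, but 4 of the 7 were positive on library totals and among genes at 10 times background fitted alone, and 2 among genes at 5 times. Ndufs7, which holds the last iron-sulfur cluster before ubiquinone, had 22.8 and 31.9 CPM with Vaseline and 32.0 and 8.08 with imiquimod: imiquimod 1 equalled the higher Vaseline library and imiquimod 2 was far below both. Ndufs1, the largest subunit, had 43.6 and 62.8 against 44.0 and 20.8 CPM (-0.73), and Ndufv1, the NADH-binding subunit, 47.8 and 83.7 against 57.8 and 22.9 (-0.72). With imiquimod lower, the groups did not overlap in 1 of the 7 core subunits and in 20 of the 28 accessory ones, against 49.7% of expressed genes. In imiquimod 1 the core subunits had a median relative level of 0.26 and the accessory subunits -0.13 on the log2 (CPM + 0.5) scale. The other libraries gave medians of 0.07 and 0.17 (Vaseline 1), 0.79 and 1.02 (Vaseline 2), and -1.05 and -1.09 (imiquimod 2). The difference between these subunit groups was not tested.

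Complex II, succinate dehydrogenase, is also an enzyme of the citric acid cycle and is encoded by the nucleus alone. Sdha, the flavoprotein that oxidises succinate, had 81.6 and 160 CPM with Vaseline and 72.1 and 38.2 with imiquimod, with -1.14 on the log2 scale (SE 0.71) and adjusted p = 0.421 by edgeR quasi-likelihood. Sdhb, the iron-sulfur subunit, had 28.4 and 52.9 CPM with Vaseline and 26.3 and 10.5 with imiquimod (-1.17). The membrane anchors Sdhc and Sdhd had 30.2 and 39.1 against 23.3 and 13.3 CPM (-0.94), and 25.6 and 42.9 against 18.2 and 14.6 CPM (-1.07). All 4 genes had non-overlapping groups, and in all 4 the gap between Vaseline 1 and imiquimod 1 was smaller than that between the Vaseline libraries.

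In complex III, which passes electrons from ubiquinol to cytochrome c, the 5 small subunits had a median log2 fold change of -1.33, the catalytic Rieske protein gene Uqcrfs1 -0.90, and the core proteins Uqcrc1 and Uqcrc2 -0.81 and -0.71 (Uqcrc2 was 0.04 on library totals). Uqcr11 had 17.4 and 40.2 CPM with Vaseline and 12.7 and 5.17 with imiquimod, and Uqcr10 14.7 and 35.0 against 12.7 and 5.22. Their log2 fold changes were -1.74 (SE 0.62, adjusted p = 0.230 by edgeR quasi-likelihood) and -1.52 (SE 0.62, adjusted p = 0.291). Uqcrb, a subunit at the ubiquinone site and the member of complex III with the highest level per exonic kilobase, had 59.5 and 115 CPM with Vaseline and 49.8 and 20.3 with imiquimod (-1.33). Uqcrh, the hinge protein of cytochrome c1, had 39.7 and 77.6 against 34.4 and 13.7 CPM (-1.30). The groups did not overlap in these 4. Uqcrfs1 had 44.9 and 72.7 CPM with Vaseline and 48.0 and 16.1 with imiquimod, and Uqcrq, a small subunit, 45.4 and 86.6 against 63.5 and 18.0 (-0.71, or 0.01 on library totals), both with overlap.

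In complex IV the 10 subunits of general use had a median log2 fold change of -1.27, and 9 of them had non-overlapping groups with imiquimod lower, against 49.7% of expressed genes. Cox4i1, the gene of this complex with the highest level per exonic kilobase, was the exception: it had 103 and 215 CPM with Vaseline and 129 and 37.8 with imiquimod (-0.94). Cox6b1, which faces the intermembrane space, had 32.5 and 51.7 CPM with Vaseline and 21.1 and 9.34 with imiquimod, or -1.50 on the log2 scale (SE 0.63, adjusted p = 0.305 by edgeR quasi-likelihood). Cox7b had 54.0 and 99.3 against 43.4 and 11.7 CPM (-1.50), and Cox7a2 16.9 and 24.9 against 13.7 and 3.998 (-1.30). Cox6a1 had 34.2 and 62.6 CPM with Vaseline and 30.7 and 9.66 with imiquimod (-1.29), and Cox8a 30.7 and 49.3 against 27.5 and 12.2 (-1.03). Cox7a2l, which links complexes III and IV, had 50.01 and 108 CPM with Vaseline and 55.5 and 17.5 with imiquimod (-1.13), with overlap.

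Cox6c had 133 and 256 CPM with Vaseline and 102 and 42.0 with imiquimod (-1.45, SE 0.77), and its retrocopy Cox6c2 3.64 and 5.77 against 4.60 and 1.96 (-0.62, SE 0.68, or 0.20 on library totals). The coding sequence of Cox6c (gene at GRCm38 chr15:35925886-35938246, minus strand) and the matching stretch of Cox6c2 (chr12:56373593-56373823, minus strand) are shown because they decide how far the counts can be told apart. Capitals mark the bases that differ.
Cox6c: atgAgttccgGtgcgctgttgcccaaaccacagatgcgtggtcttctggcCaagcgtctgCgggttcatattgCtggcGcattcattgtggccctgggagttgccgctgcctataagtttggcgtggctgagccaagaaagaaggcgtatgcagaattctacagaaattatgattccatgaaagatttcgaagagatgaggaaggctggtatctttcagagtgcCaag
Cox6c2: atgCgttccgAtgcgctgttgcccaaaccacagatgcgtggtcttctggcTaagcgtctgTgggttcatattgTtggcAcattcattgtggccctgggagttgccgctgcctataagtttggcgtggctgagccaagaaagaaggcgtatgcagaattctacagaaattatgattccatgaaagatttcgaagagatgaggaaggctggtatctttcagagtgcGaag
Over 228 bases the pair differs at 7, an identity of 96.9%, and shares a run of 145 bases without a difference. A read inside that run fits both genes, so the Cox6c2 counts are uncertain.

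The tissue forms of complex IV subunits, used mainly in muscle, lung or testis, had low levels. Cox6a2, Cox6b2 and the forms below the filter lay under 5 times the receptor gene background, and Cox4i2 and Cox7a1 above it. Cox4i2, the lung form, had 1.497 and 2.16 CPM with Vaseline and 0.831 and 1.43 with imiquimod, at 7.15 times the receptor gene background on average. Cox7a1, the heart and muscle form, had 1.72 and 1.98 CPM with Vaseline against 0 and 2.66 with imiquimod, at 10.2 times the background. Their log2 fold changes of -0.61 and -0.19 took the other sign under other scalings, 0.36 and 0.85 on library totals. Cox6a2, a muscle form, had 0.824 and 0.330 CPM with Vaseline against 0 and 1.31 with imiquimod, a value of 0.56 that was -0.040 with DESeq2 and -0.12 without Vaseline 2. Cox6b2, a testis form, had 1.62 and 1.54 CPM with Vaseline against 0 and 0.554 with imiquimod (-2.10, SE 1.05, adjusted p = 0.361 by edgeR quasi-likelihood). A count of 0 in imiquimod 1 allows up to 0.192 CPM, 3 counts, which covers counting error only.

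The 3 forms below the filter were Cox8b at 0.175 and 0 CPM with Vaseline and 0.256 and 0.584 with imiquimod, Cox8c at 0.275 and 0 against 0 and 0.467, and Cox7b2. Cox7b2 had 82 counts in imiquimod 2, or 2.39 CPM, and 0 in the other 3 libraries. When Vaseline 1 was left out it passed the filter and was called higher (adjusted p = 0.00862), in a fit that called 7.17% of all tested genes higher and 0.768% lower. That fit also called Atp5k (-2.79, adjusted p = 0.0136) and Ndufa1 (-2.86, adjusted p = 0.0142) lower. Markers of skeletal muscle, which the ear also holds, summed to 133 and 70.7 CPM with Vaseline and 149 and 202 with imiquimod over 14 genes, and none of them passed. Most of that sum is Ttn (87.7 and 36.9 against 106 and 146 CPM), which is at 1.93 times background, and 5 of the 14 were negative, among them Tnni2 (-1.65) and Tnnt3 (-1.53) with non-overlapping groups. Pvalb, a defining gene of fast muscle, had no count in Vaseline 2 and imiquimod 1. The part of muscle RNA in the values of these forms was not tested.

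Complex V had its lowest value in the small membrane subunit Atp5k, which takes part in joining ATP synthase dimers (ENSMUSG00000050856; GRCm38 chr5:108433244-108434448, minus strand). It had 8.56 and 18.6 CPM with Vaseline and 3.51 and 2.39 with imiquimod, with no overlap, a log2 fold change of -2.25 (SE 0.66) and adjusted p = 0.112 by edgeR quasi-likelihood. With DESeq2 it had -2.52 and no adjusted p. Atp5mpl, another small membrane protein of the complex, had 61.1 and 134 against 55.5 and 18.4 CPM (-1.42). The catalytic F1 subunits Atp5b and Atp5a1 had the 1st and 5th highest level per exonic kilobase among all members, 79.0 and 65.0 CPM per kilobase on average; Cox4i1 (78.1), Atp5h (77.5) and Uqcrb (69.8) stood between them. Atp5b had 309 and 585 CPM with Vaseline and 316 and 129 with imiquimod (-1.01), and Atp5a1 194 and 345 against 196 and 80.7 (-0.97), both with overlap. Atp5e, a small subunit of the F1 stalk, had 17.0 and 26.8 CPM with Vaseline and 10.99 and 5.78 with imiquimod (-1.43). The peripheral stalk genes Atp5h (105 and 215 against 104 and 30.002 CPM, -1.27) and Atp5o (38.9 and 64.5 against 30.8 and 13.9 CPM, -1.23) had non-overlapping groups. However, 47.9% of the exonic bases of Atp5o are covered by exons of other annotated entries: a second Atp5o entry, D430001F17Rik and Gm15976.

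The proton-conducting c ring is made of a single mature protein encoded by 3 genes, which were compared in their own counts. Atp5g1 had 19.0 and 33.0 CPM with Vaseline and 13.5 and 10.1 with imiquimod (-1.16). Atp5g3 had 36.9 and 60.1 against 29.4 and 14.1 CPM (-1.18), and Atp5g2 13.1 and 25.3 against 15.7 and 5.25 (-0.93), the latter with overlap. Per exonic kilobase Atp5g3 was highest at 16.1 CPM, then Atp5g2 at 8.86 and Atp5g1 at 3.85. The last 225 coding bases of each, which hold the mature protein, are shown since they are the part most alike; capitals mark the 57 positions at which the 3 are not all the same. The genes lie, on GRCm38 and all on the minus strand, at chr11:96068852-96075670 (Atp5g1), chr15:102662864-102672352 (Atp5g2) and chr2:73908447-73911326 (Atp5g3).
Atp5g1: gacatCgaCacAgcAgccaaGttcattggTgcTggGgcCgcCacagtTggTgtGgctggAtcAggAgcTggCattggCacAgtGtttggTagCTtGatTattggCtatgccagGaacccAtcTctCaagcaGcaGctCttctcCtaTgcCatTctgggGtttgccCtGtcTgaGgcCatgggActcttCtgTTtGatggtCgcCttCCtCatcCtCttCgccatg
Atp5g2: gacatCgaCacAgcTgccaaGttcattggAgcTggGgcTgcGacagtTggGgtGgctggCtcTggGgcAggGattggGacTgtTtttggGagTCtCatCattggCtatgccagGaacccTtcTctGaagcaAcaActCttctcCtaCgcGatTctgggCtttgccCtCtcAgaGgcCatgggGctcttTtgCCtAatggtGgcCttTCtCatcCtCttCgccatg
Atp5g3: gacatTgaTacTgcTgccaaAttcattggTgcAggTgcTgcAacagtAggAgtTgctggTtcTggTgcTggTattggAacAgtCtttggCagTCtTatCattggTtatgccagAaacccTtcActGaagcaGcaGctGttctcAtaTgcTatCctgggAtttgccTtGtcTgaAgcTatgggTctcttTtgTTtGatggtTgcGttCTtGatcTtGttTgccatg
Pairs differ at 34 (Atp5g1 and Atp5g2), 45 (Atp5g1 and Atp5g3) and 48 bases (Atp5g2 and Atp5g3), of which 32, 41 and 44 are at the third position of a codon. The longest runs they share are 20, 11 and 8 bases, far shorter than the run shared by Cox6c and Cox6c2.

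Fold change went with coding length among the members. Over the 78 members at 5 times background with a coding length, Spearman's rho between coding length and log2 fold change was 0.45 (Pearson's r 0.34). Within the 28 accessory subunits of complex I rho was 0.43, and over 8187 expressed protein-coding genes up to the length of the longest member it was 0.10. These values are across genes of the same 4 libraries, which are not independent, and are given as a description. The shortest 26 members, with 156 to 324 coding bases, had a median log2 fold change of -1.36, the middle 26 had -1.10 and the longest 26, from 516 to 2181 bases, had -0.95. Expressed protein-coding genes of those lengths had medians of -0.98, -0.92 and -0.73. All 7 core subunits of complex I fall among the longest 26, so length and catalytic role overlap there; GC content of the coding sequence had a rho of 0.15.

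**Figure D3:**
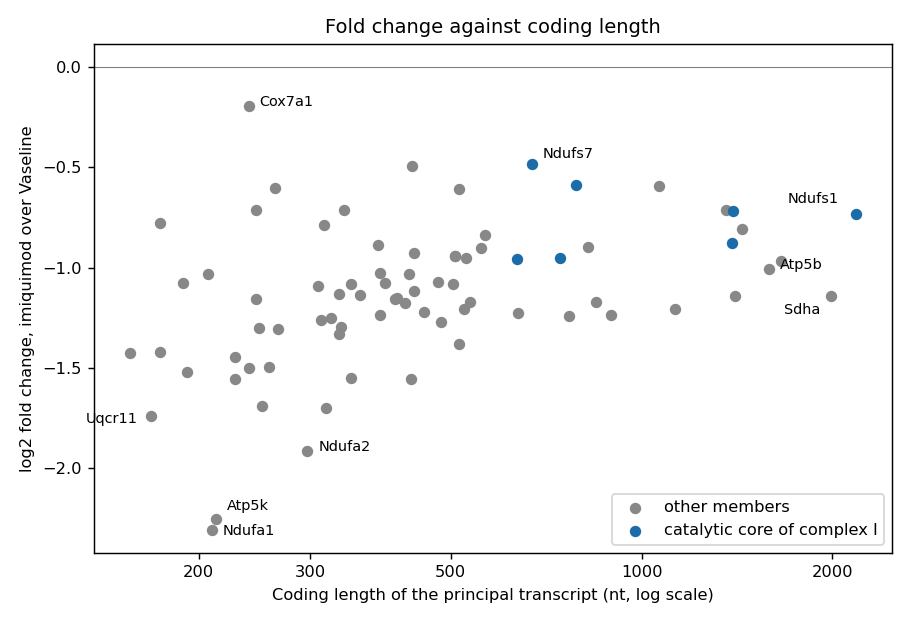
Each point is a member at 5 times background, with the coding length of its principal transcript on a log axis and its log2 fold change, imiquimod over Vaseline; blue points are the 7 catalytic core subunits of complex I. The lowest values, Ndufa1 (-2.31) and Atp5k (-2.25), are short genes, and the core subunits lie between -0.96 and -0.48 among the long ones.

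The counterparts made inside the mitochondrion were compared next. All 13 mitochondrially encoded subunits had negative log2 fold changes, with a median of -1.28, and none passed. In 12 of them the groups did not overlap, with imiquimod lower, against 20.9% of all tested genes and 49.7% of expressed genes. As a share of unscaled library totals this held for 6 of the 13, against 7.42% and 18.9%. The 13 genes made up 0.787% and 0.841% of the Vaseline libraries and 0.377% and 0.774% of the imiquimod libraries. By that sum imiquimod 2 lay close to Vaseline 1. The catalytic subunit of complex IV, mt-Co1, had 2505 and 4628 CPM with Vaseline and 1245 and 1387 with imiquimod (-1.44, SE 1.71). Their course over libraries differed from that of the nuclear genes: median relative levels were 0.28 and 1.06 with Vaseline but -1.06 and -0.27 with imiquimod. The ratio of summed mitochondrial to summed nuclear counts was 2.61 and 2.42 with Vaseline and 1.20 and 3.74 with imiquimod. The imiquimod libraries thus lay on either side of the Vaseline libraries. The same order, imiquimod 1 lowest and imiquimod 2 highest, held for complex I (1.45 and 5.82, against 3.64 and 3.28 with Vaseline), complex IV (2.91 and 8.36, against 5.46 and 5.17) and complex V (0.413 and 0.703, against 0.639 and 0.645). In complex III imiquimod 1 was lowest at 1.10, and imiquimod 2, at 3.51, lay between the Vaseline libraries at 3.57 and 2.94.

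Other genes of the pathway were taken from fixed lists. Of the expressed genes, to be set beside each list, 82.1% were negative, with a median of -0.67. Of 46 assembly factors of the complexes, 42 had negative log2 fold changes, with a median of -0.69, and none passed. The copper chaperone of complex IV, Cox17, had 28.9 and 68.1 CPM with Vaseline and 23.7 and 21.8 with imiquimod (-1.10), and Acad9, a complex I assembly factor, 51.0 and 52.7 against 35.6 and 24.4 (-0.80). The 13 enzymes of the citric acid cycle had a median of -0.86, all negative and none passing. Citrate synthase, Cs, had 118 and 223 CPM with Vaseline and 130 and 58.1 with imiquimod (-0.86). Of 17 electron carriers and their partners, 12 were negative, with a median of -0.31 and none passing. Cytochrome c, Cycs, had 38.7 and 76.8 against 32.8 and 17.5 CPM (-1.21). Of 13 regulators of mitochondrial biogenesis, 10 were negative with a median of -0.49, and none passed. Among the regulators, the mitochondrial DNA polymerase gene Polg had 111 and 212 CPM with Vaseline and 65.3 and 41.3 with imiquimod (-1.60, SE 0.74, adjusted p = 0.338 by edgeR quasi-likelihood). The coactivator gene Ppargc1a, at 2.03 times background, had 4.62 and 2.95 against 5.56 and 7.06 CPM (0.76).

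Promoters were searched for the letters of factors known to act on respiratory chain genes, since the members shared a course over the libraries. RefSeq windows of 300 bases, from 250 before to 50 after the start (GRCm38.p6), matched 68 of the 84 members by symbol. Counting both strands, the ETS letters CCGGAAG (bound by GABP among others) were in 17 of 68 (25%), against 9.9% of 27025 genes and 20.8% of 8688 expressed protein-coding genes. The NRF1 letters GCATGCG were in 11 (16.2%), against 4.0% and 7.4%, and the YY1 letters AAGATGG in 11 (16.2%), against 7.3% and 8.5%. ETS and YY1 letters can overlap by 3 bases, which happened in 0 members. A match is a description of the letters, not of binding, and the shares were not tested. The exon-free upstream stretch of 1 promoter is shown for each complex in which a stretch of at least 140 bases close to the start held a match. It is that of the member with the smallest p among those considered. Not every member was considered, so members of smaller p that are not shown may also hold a match. Capitals mark the matched letters.
Ndufa6: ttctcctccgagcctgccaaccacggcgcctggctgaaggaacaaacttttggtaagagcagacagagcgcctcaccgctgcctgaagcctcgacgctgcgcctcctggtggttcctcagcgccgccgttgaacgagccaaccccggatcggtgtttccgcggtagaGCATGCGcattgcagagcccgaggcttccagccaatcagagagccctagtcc
Uqcr11: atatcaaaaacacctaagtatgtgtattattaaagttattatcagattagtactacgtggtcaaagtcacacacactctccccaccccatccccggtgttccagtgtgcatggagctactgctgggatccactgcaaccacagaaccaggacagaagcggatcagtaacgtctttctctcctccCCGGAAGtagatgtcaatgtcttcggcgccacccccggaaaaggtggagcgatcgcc
Cox6a1: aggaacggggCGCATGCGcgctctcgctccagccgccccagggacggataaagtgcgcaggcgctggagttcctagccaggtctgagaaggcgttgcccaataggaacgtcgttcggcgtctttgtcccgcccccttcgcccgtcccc
Atp5e: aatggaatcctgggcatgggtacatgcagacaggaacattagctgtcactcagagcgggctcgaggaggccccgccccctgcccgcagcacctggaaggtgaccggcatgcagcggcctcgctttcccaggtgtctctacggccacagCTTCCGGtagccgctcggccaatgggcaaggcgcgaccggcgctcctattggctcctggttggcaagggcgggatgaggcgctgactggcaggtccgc
They lie at chr15:82354323-82354541 (Ndufa6, NRF1 letters at -83 from the start), chr10:80406831-80407071 (Uqcr11, ETS letters at -66), chr5:115348982-115349129 (Cox6a1, NRF1 letters on both strands at -161 and -160, overlapping) and chr2:174464106-174464351 (Atp5e, ETS letters of the other strand at -102), all on the minus strand. Ndufa6, an accessory subunit of complex I, had 60.8 and 115 CPM with Vaseline and 63.4 and 20.8 with imiquimod, and the other 3 were described with their complexes.

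Markers of Langerhans cells and of other cells moved over the libraries too. The 16 Langerhans cell markers had negative log2 fold changes in all 16, with a median of -2.13, and summed to 25854 and 67844 CPM with Vaseline and 9728 and 8038 with imiquimod; Cd207, the defining langerin gene, had 2255 and 6884 against 1201 and 575 CPM. The 14 keratinocyte markers summed to 21778 and 25278 CPM with Vaseline and 21245 and 5527 with imiquimod, with Krt14 at 5560 and 7505 against 6502 and 1726, and 1 of them, Krt77, fell (-3.58, adjusted p = 0.0415 by edgeR quasi-likelihood), a call lost with any 1 library left out (adjusted p from 0.0753 to 0.9997). The 9 neutrophil markers summed to 24.1 and 57.2 CPM with Vaseline and 74.6 and 264 with imiquimod, and S100a8 and Mmp8 rose among them (2.69 and 3.45, adjusted p = 0.0193 and 0.00121 by edgeR quasi-likelihood). Mmp8 was at 4.49 times background. Of the 9, 7 were positive and 2 negative: Mpo (-0.94), with non-overlapping groups at 11.5 and 8.98 against 4.79 and 5.72 CPM, and Elane (-0.39). Both calls were lost on library totals (adjusted p = 0.2105 and 0.2672 by edgeR quasi-likelihood) and without a filter (0.4957 each). The call of S100a8 was lost without Vaseline 1 (adjusted p = 0.2787) and that of Mmp8 without Vaseline 2 (0.7381), and both without imiquimod 2 (0.9997); Elane had no count in Vaseline 2 and imiquimod 1. The 6 fibroblast markers summed to 35.5 and 139 against 26.7 and 55.3 CPM. Col3a1 was called lower among them (-2.53, adjusted p = 0.0408 by edgeR quasi-likelihood), but its groups overlapped, at 6.86 and 51.3 against 2.56 and 6.98 CPM, and without Vaseline 2 it had -0.53. Its call was also lost without either imiquimod library (adjusted p = 0.3187 and 0.9997). Pdgfra had non-overlapping groups upward (0.91). Of 8 T cell, 7 brown adipocyte and 5 melanocyte markers none passed. Vaseline 2 was highest and imiquimod 2 lowest in the Langerhans cell and keratinocyte sums, as in most respiratory chain genes. The part of cell makeup in the respiratory chain values was not tested.

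**Figure D4:**
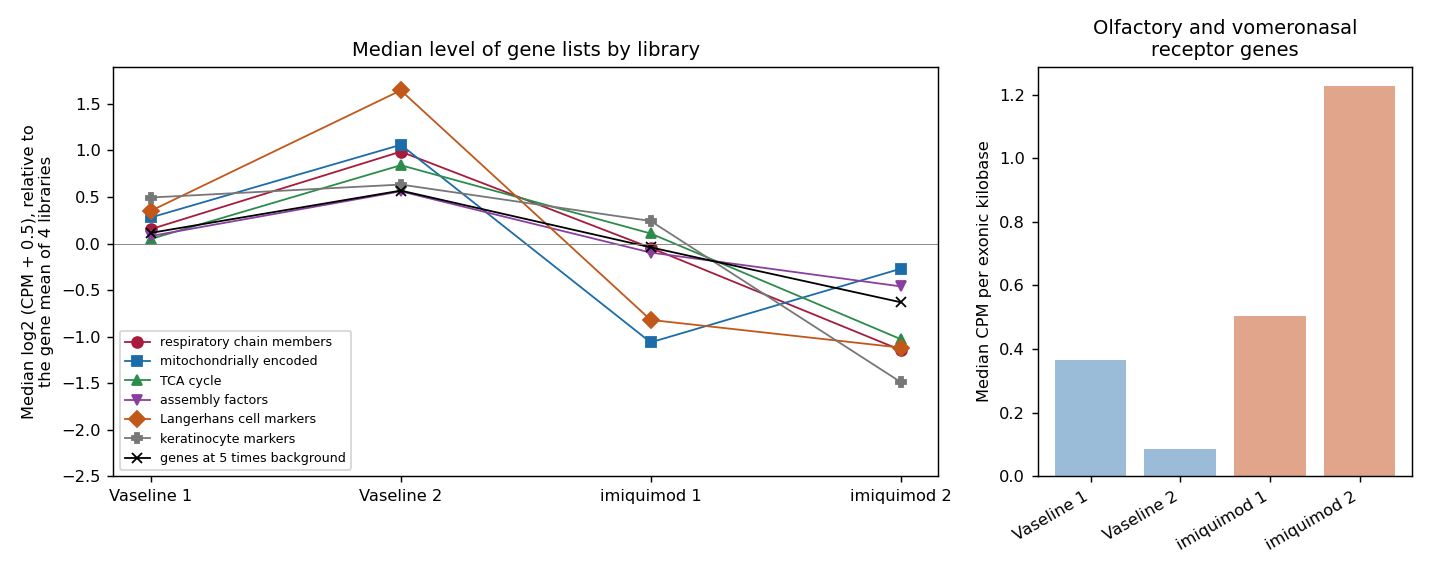
Left, the median over each gene list of log2 (CPM + 0.5) relative to the mean of the gene over 4 libraries; right, bars of the median level of olfactory and vomeronasal receptor genes in CPM of the unscaled library total per exonic kilobase. Respiratory chain members run from 0.99 in Vaseline 2 to -1.14 in imiquimod 2, mitochondrially encoded genes are lowest in imiquimod 1 (-1.06), and the receptor genes run from 0.0861 in Vaseline 2 to 1.23 in imiquimod 2.

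The size of the member median depended on the scaling. A scaling factor moves all genes of a library together, so the distance of the members to the expressed genes could hardly change with it. It was -1.42 with RLE factors, -0.76 with upper-quartile factors and -0.30 on library totals, where 66 genes were negative and 15 positive. On library totals 14 members had the other sign, from 0.01 to 0.85: Ndufa7, Ndufa10, Ndufa12, Ndufb2, Ndufs1, Ndufs3, Ndufs7, Ndufv1, Uqcrc2, Uqcrq, Cox4i2, Cox6c2, Cox7a1 and Atp5j2. The median of all tested genes was 0.41 with TMM and 0.16, 0.76 and 1.30 with those scalings. Members minus expressed genes gave -0.46 with TMM and -0.48, -0.45 and -0.44 with the others. When genes at 5 times background were fitted alone, the member median was -0.36 with 70 negative and 9 positive, and the distance -0.44; at 10 times background it was -0.29 and the distance -0.31. Single libraries mattered: with Vaseline 1 or 2 left out the distance was -0.59 or -0.20, and with imiquimod 1 or 2 left out -0.69 or -0.31. The member medians in those fits were -1.58, -0.62, -1.85 and -0.72.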

How the data were processed

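Total RNA from isolated ear Langerhans cells had been extracted with a Zymo DirectZol column kit and made into libraries with the SMARTer Pico Input total RNA kit, per the labels' protocols. The deposited values are whole-number counts per gene. The authors used Trimmomatic, HISAT2, SAMtools and StringTie on GRCm38, per the submitters' processing notes; versions, annotation, strand setting and treatment of multi-mapped reads are not given in the sources used here, so overlapping genes cannot be told apart.

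Counts were fitted across all genes with edgeR 4.0.16 (R 4.3.3; filterByExpr minimum count 10 and total 15, 16048 genes left out; TMM; quasi-likelihood in its newer form; two-sided; Benjamini-Hochberg; log2 fold changes). Its common dispersion of 0.369 is a coefficient of variation of 0.607. DESeq2 1.42.0 and limma-voom 3.58.1, other scalings, filters, a replicate block and fits with 1 library left out were alternatives. Lengths and overlaps came from GENCODE vM21 (55227 rows matched; bedtools 2.31.1); the background from 2003 receptor genes. Python 3.11.15, pandas 2.3.3, numpy 2.4.6 and matplotlib 3.10.9 were used. The fit was also run on simulated counts. Apart from set changes in some genes, all libraries had the same mean makeup there. That run therefore cannot speak to the differences between libraries described here.

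The members and lists were chosen with earlier results of these data known. Named were, per complex, members of smallest p (6 in I, IV and V, 4 in II and III), the 3 of highest level per exonic kilobase, paralogue sets, and members below the filter. The core subunits of complex I, Uqcrc1, Uqcrc2, Uqcrq, Cox6c2 and overlapping genes were named after their values were seen. The value of 1 member is not reported here.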

Additional observations from a re-analysis of the deposited data

How the results depend on the processing

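Of the settings run, called members changed with DESeq2 (0 higher, 2 lower) and when single libraries were left out (0 to 1 higher, 0 to 2 lower). The counts of all genes called, 25 higher and 54 lower, moved more. Higher calls were 41 with upper-quartile factors, 8 on library totals, 6 with DESeq2, 41 with limma-voom, 0 without a filter, and 0 among genes at 5 or at 10 times background. Lower calls were 14 with RLE factors, 5 on library totals, 669 with DESeq2, 136 with limma-voom, 0 without a filter, 124 with at least 10 counts per library, and 0 among genes at 5 or at 10 times background. Leaving out 1 library gave 8 to 2959 higher, the latter without Vaseline 1, and 0 to 317 lower. The member median of -1.13 was -0.30 on library totals, -0.36 and -0.29 among genes at 5 and 10 times background, and -1.85 to -0.62 with 1 library left out; it was negative in every setting run. Where an arm kept 1 library, that library was assumed to vary like the other arm. The older quasi-likelihood form, added after seeing the data, gave 3 higher and 5 lower.

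On library totals 14 of the 81 members turned sign, and among genes at 5 and 10 times background 9 of 79 and 15 of 77; with upper-quartile factors, DESeq2 or limma-voom 1 each, and with 1 library left out 0 to 3. Among the members named by rule these were 3 tissue forms. Cox4i2 (-0.61) was 0.36 on library totals and 0.24 among genes at 5 times background. Cox6a2 (0.56) was -0.040 with DESeq2, -0.19 with limma-voom, -0.12 without Vaseline 2, and between -7.25 (without imiquimod 2) and 1.14 (without imiquimod 1) with 1 library left out. Cox7a1 (-0.19) was 0.21 with upper-quartile factors, 0.85 on library totals, 0.66 and 0.77 among genes at 5 and 10 times background and between -8.97 (without imiquimod 2) and 0.44 (without imiquimod 1) with 1 library left out. The cause was not tested.

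With the replicate number as a block, 1 gene was called higher and 0 lower, with no member. Deviations of same-numbered samples correlated at -0.33, and the numbers share nothing else in the labels. The crossed pairing, added after seeing the data, gave 0 higher and 0 lower. Precision was limited by 2 libraries a group with a coefficient of variation of 0.607.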

Other observations

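Some genes close to the respiratory chain stood outside the symbol rule. Ndufa4l2, a hypoxia-induced relative of Ndufa4, had 16.2 and 23.5 CPM with Vaseline and 3.003 and 1.46 with imiquimod, a log2 fold change of -3.25 (SE 0.69). It passed with adjusted p = 0.00376 by edgeR quasi-likelihood, among the 54 genes called lower, and in 8 of the 18 settings run, the one reported included. The call was lost on library totals (-2.42, adjusted p = 0.298), without a filter (0.465), among genes at 5 or 10 times background (0.311 and 0.459), with the older form (0.238), with the replicate block (0.705) or the crossed block (0.222), and without Vaseline 2 (0.120), imiquimod 1 (0.262) or imiquimod 2 (0.9997). Ndufa4 itself, of complex IV, had 10.1 and 20.9 against 8.37 and 5.81 CPM (-1.16). Atpif1, the inhibitor of ATP synthase hydrolysis, had 228 and 448 CPM with Vaseline and 138 and 34.3 with imiquimod (-1.98, adjusted p = 0.323). Cyc1, the cytochrome c1 subunit of complex III, had 28.8 and 44.7 against 25.6 and 11.1 CPM (-1.03). Ndufb1-ps, left out for its suffix though GENCODE vM21 does not type it as a pseudogene, had 18.4 and 41.3 CPM with Vaseline and 12.8 and 9.22 with imiquimod (-1.45, adjusted p = 0.311), and Ndufab1, the acyl carrier protein of complex I, a log2 fold change of -0.65. Ndufb1-ps is not among the 10 matching rows left out for -ps, since with its suffix the symbol does not match the rule for Nduf genes. Those 10 rows, without Ndufb1-ps, made up 0.0021% and 0.0019% of the Vaseline libraries and 0.0020% and 0.0023% of the imiquimod libraries.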
